A study of Mus musculus with 7 samples.

Results

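IGHV1-26 was the most used immunoglobulin heavy chain V gene of this data set, and its cells are described here across 3 lymph nodes and 2 genotypes. Its members are the B cells with exactly 1 heavy chain whose V call, with the allele removed, is IGHV1-26. They number 1081 of the 17381 single-heavy cells in the 6 libraries of known node and genotype, and a further 136 of 2488 such cells lie in a library that mixes all nodes and both genotypes. B cell receptor (V(D)J) libraries were made with the 10x Genomics droplet method from female mice aged 10 to 11 months, either wild type (WT) or 5xFAD, a transgenic strain, its transgenes driven by the neuronal Thy1 promoter, that models the amyloid deposition of Alzheimer's disease. The nodes were the deep cervical (dCLN) and superficial cervical (sCLN) lymph nodes, which take up lymph from the head and brain coverings, and the inguinal lymph node (iLN), which drains the hind part of the body.

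An immunoglobulin heavy chain is assembled in each developing B cell by joining 1 V, 1 D and 1 J gene segment, with untemplated N bases added at the joints. The V gene encodes the first and second complementarity-determining regions (CDR1 and CDR2), the loops that touch antigen, and the framework regions (FWR) that hold them. The joint itself encodes CDR3, and the junction is CDR3 with its flanking conserved codons. A naive B cell splices the same V region to IgM and IgD. After antigen contact it may switch to IgG, IgA or IgE and collect point mutations, which fall most often at short motifs such as AGCT.

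The IGHV1-26 germline is printed because every mutation below is counted against it, with CDR1 and CDR2 in capitals.

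IGHV1-26: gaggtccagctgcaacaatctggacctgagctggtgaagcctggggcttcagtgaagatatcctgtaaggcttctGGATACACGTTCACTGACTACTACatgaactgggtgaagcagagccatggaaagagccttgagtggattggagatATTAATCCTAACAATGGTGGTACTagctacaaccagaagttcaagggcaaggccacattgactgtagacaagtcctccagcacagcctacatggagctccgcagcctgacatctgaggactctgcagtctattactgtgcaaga

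The 294 bases of this V region were found without a difference in the Ighv1-26 transcript (ENSMUSG00000094546.1) of the GENCODE annotation of mm10. The gene lies on the minus strand at chr12:114788372-114788805, with the first 46 bases of its leader in exon 1 (114788760 to 114788805). The rest of the leader and the V region, which starts at transcript base 58, lie in exon 2 (114788372 to 114788676). Ighv1-26 is the 67th of 113 annotated functional V genes counted from the D-proximal, low-coordinate end, 1359 kb from Ighj1 and between Ighv1-24 and Ighv1-31. The V calls of all 1081 cells named allele 01, and none named a further gene as equally good.

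The nearest germlines bear on whether a read could be assigned to the wrong gene, so their loops are shown, with bases that differ from IGHV1-26 in capitals.

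IGHV1-26 CDR1: ggatacacgttcactgactactac
IGHV1-18 CDR1: ggatacacAttcactgactacAac
IGHV1-19 CDR1: ggatacacAttcactgactactaT
IGHV1-22 CDR1: ggatacacAttcactgactacAac
IGHV1-26 CDR2: attaatcctaacaatggtggtact
IGHV1-18 CDR2: attaatcctaacaatggtggtact
IGHV1-19 CDR2: attaatcctTacaaCggtggtact
IGHV1-22 CDR2: attaaCcctaacaatggtggtact

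IGHV1-18 was nearest, with 8 of 288 compared bases different and the same CDR2. IGHV1-19 and IGHV1-22 each differed at 11 bases, as did IGHV1-34, which followed them in gene order. In 1080 of the 1081 cells the V call of the 10x software was IGHV1-26 as well.

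The 6 libraries held 2398 to 4411 barcodes and 99906 to 312484 immunoglobulin UMIs (unique molecular identifiers, counting captured molecules). Each node and genotype is 1 library in which tubes of hashtagged cells were pooled, and cells were not assigned to animals here, so there is no replicate of any group and intervals (exact Clopper-Pearson, 95%) cover counting error only. Of 19824 barcodes, 225 occurred in more than 1 library, and 1 of the 1080 distinct member barcodes was a member in more than 1. Heavy and light chains are the defining feature of B cells. Of the member cells, 992 had 1 light chain beside the heavy chain, 76 had more and 13 had none.

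The gene was chosen by this share, its usage, which is therefore given as a description with no test. It was 5.54% (interval 4.79 to 6.37, 187 of 3374 cells) in WT dCLN and 6.38% (5.63 to 7.19, 249 of 3904) in 5xFAD dCLN. In sCLN it was 6.37% (5.57 to 7.23, 219 of 3440) in WT and 5.86% (4.94 to 6.88, 138 of 2356) in 5xFAD. In iLN it was 6.95% (5.93 to 8.10, 153 of 2200) in WT and 6.41% (5.40 to 7.54, 135 of 2107) in 5xFAD. The highest library, WT iLN, lay 1.25-fold above the lowest, WT dCLN, and the intervals of all 6 overlapped. Pooled, the share was 6.22% (5.87 to 6.59), with a mean of 6.25% ± 0.491 (SD, n = 6 libraries). IGHV9-3 came next at 4.06% of the pooled cells, then IGHV3-6 at 3.49%, IGHV8-8 at 3.30% and IGHV1-81 at 3.14%. IGHV1-26 ranked first among 96 V genes in every one of the 6 libraries, and in the mixed library too (5.47%, 4.61 to 6.43).

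**Figure D1:**
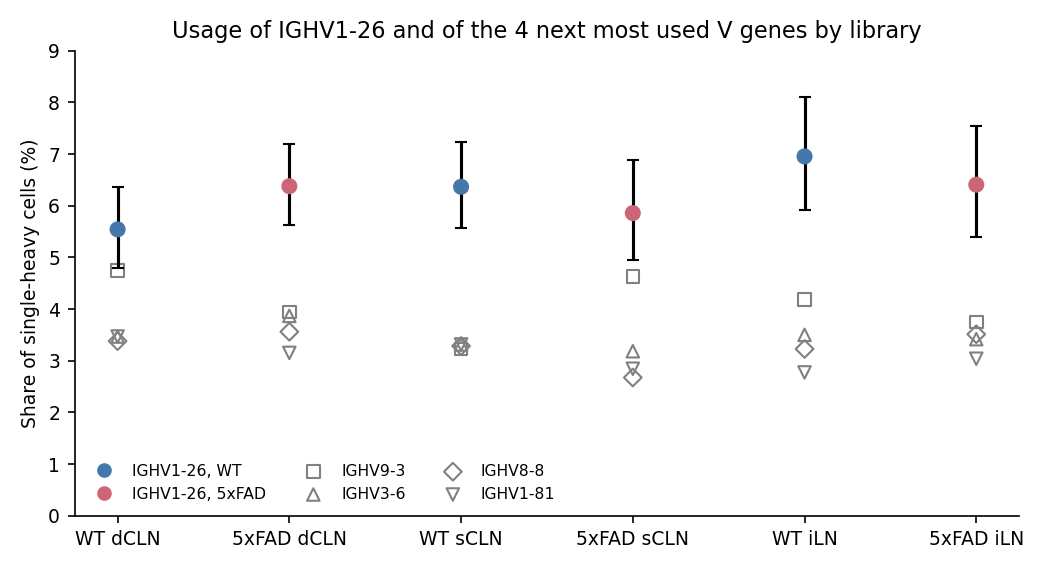
Share of single-heavy cells (percent, vertical axis) using IGHV1-26 in each of the 6 libraries, as filled points with exact 95% intervals, and using the 4 next most used V genes, as open grey symbols. The IGHV1-26 points run from 5.54% to 6.95% and stand above the other 4 genes in each library.

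The 5xFAD minus WT difference in usage was +0.836 percentage points in dCLN (95% interval -0.278 to 1.94), -0.509 in sCLN (-1.77 to 0.788) and -0.547 in iLN (-2.07 to 0.981). Each interval held 0 and the sign was not the same in the 3 nodes. Among V genes at 1% or more, the exact intervals of the WT and 5xFAD shares lay apart for 2.63% in dCLN, 2.38% in sCLN and 0% in iLN, and IGHV1-26 was not among them. Between nodes, the WT share in dCLN was below that in iLN (difference -1.41 percentage points, interval -2.78 to -0.0935), the 1 node difference of 6 whose interval left out 0. In 5xFAD mice the same pair of nodes differed by -0.0291 (-1.38 to 1.27). The V genes with the steadiest ratio of share to IGHV1-26 across the 6 libraries were IGHV5-4 (SD of the log2 ratio of shares 0.09), IGHV1-59 (0.10) and IGHV3-6 (0.13). A gene whose own share hardly varies also has a small SD here, so the measure does not show that shares rose and fell together.

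Nearly all IGHV1-26 cells were unswitched. Of 1054 member cells with a constant region call, 21 were switched (1.99%, interval 1.24 to 3.03), against 542 of 16124 cells using other V genes (3.36%, 3.09 to 3.65). By library the switched share of member cells was 5.06% (9 of 178) in WT dCLN, 2.46% (6 of 244) in 5xFAD dCLN, 1.40% (3 of 215) in WT sCLN and 0.730% (1 of 137) in 5xFAD sCLN. In WT iLN it was 1.34% (2 of 149), and in 5xFAD iLN no switched cell was found among 131, which allows a share of up to 2.29% by the limit of 3 counts for a count of 0 (the exact interval reaches 2.78%). Cells with other V genes were switched in 4.05%, 4.22%, 4.42%, 3.04%, 1.44% and 1.28% of cells in the same order of libraries. WT dCLN was the only library in which the IGHV1-26 share was the higher of the pair. Of its 9 switched members, 6 were cells of 1 clone, described below. The mean difference over libraries was -1.24 percentage points ± 1.48 (SD, n = 6), which an exact two-sided sign-flip permutation test over libraries did not separate from 0 (p = 0.0938, Benjamini-Hochberg adjusted over 8 measures 0.188). With 6 libraries the smallest p such a test can give is 0.0313. With identical barcodes counted as 1 cell the share was higher in 0 of 6 libraries (mean difference -1.32). The same exact permutation test gave p = 0.0313 (adjusted p = 0.0833). With at least 3 heavy UMIs, and with each clone counted once, it stayed higher in 1 of 6.

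Of the 21 switched cells, 10 were IgG2b, 8 IgG2c, 2 IgG1 and 1 IgA, and no IgG3 was seen. IgG2c and IgG2b are the subclasses made in responses with interferon or TGF-beta signals, IgG1 is the one typical of IL-4 signals, and IgA is the class of mucosal secretion. WT libraries held 14 of the 21 and 5xFAD libraries 7. Both IgG1 cells and the IgA cell came from WT dCLN.

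Among unswitched member cells, the share read as IgD was higher than in the other cells of the same library in all 6 libraries. The member shares were 30.2% in WT dCLN, 22.3% in 5xFAD dCLN, 26.9% in WT sCLN, 25.7% in 5xFAD sCLN, 26.5% in WT iLN and 23.7% in 5xFAD iLN. Other cells gave 27.7%, 16.0%, 23.3%, 19.0%, 21.5% and 20.3%. The mean difference was +4.57 percentage points ± 1.72 (SD, n = 6; exact sign-flip permutation p = 0.0313, adjusted p = 0.0833), so it did not pass the threshold of 0.05 after adjustment. Of the 38 V genes at 1% or more, 10.5% were higher than the rest in 6 of 6 libraries.

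The depth per cell moved with this value. The median heavy chain UMI count of member cells was 6 in WT dCLN, 9 in 5xFAD dCLN, 8 in WT sCLN, 9 in 5xFAD sCLN, 7 in WT iLN and 8 in 5xFAD iLN, against 9, 13, 11, 12, 12 and 12 in other cells. Among the 38 V genes, 28.9% were below the rest in 6 of 6 libraries, and IGHV1-26 ranked 3 from the lowest. The IgD share fell steeply with UMIs in both sets. Among cells with 1 or 2 heavy UMIs it was 57.4% for members and 60.2% for others, at 3 to 5 UMIs 52.5% and 51.8%, and at 6 to 10 UMIs 23.2% and 27.5%. At 11 to 20 UMIs it was 6.56% and 11.6%, and at 21 or more it was 0 of 38 member cells and 2.95% of others. With the 6 libraries pooled, as in these values, the members were not higher within a bin except between 3 and 5 UMIs. Single libraries varied. Members were higher at 1 or 2 UMIs in 5xFAD dCLN and WT iLN and at 6 to 10 UMIs in 5xFAD sCLN. At 3 to 5 UMIs they were lower in WT sCLN and WT iLN. When the other cells of each library were weighted to the UMI bins of the members, the direction reversed: the differences became -4.15, -0.127, -3.00, -6.95 and -6.75 percentage points in 5 libraries and +0.816 in 5xFAD sCLN (mean -3.36, adjusted p = 0.188 by the same exact permutation test). This weighting was chosen after seeing the data.

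**Figure D2:**
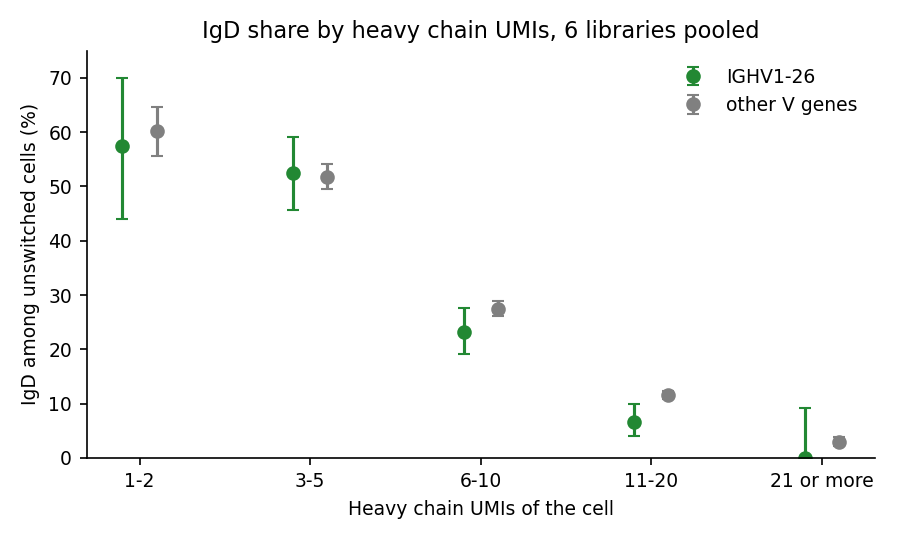
IgD share of unswitched cells (percent, vertical axis) by the number of heavy chain UMIs of the cell (horizontal axis), 6 libraries pooled, for IGHV1-26 and for other V genes, with exact 95% intervals. Both sets fall from near 60% to near 0, and the IGHV1-26 points lie below the others except between 3 and 5 UMIs.

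Junctions of IGHV1-26 cells were slightly shorter than those of other cells in each library. The mean length was 41.1 bases in WT dCLN, 40.9 in 5xFAD dCLN, 41.5 in WT sCLN, 41.6 in 5xFAD sCLN, 42.0 in WT iLN and 41.2 in 5xFAD iLN. Other cells ran from 42.1 to 42.6 bases, so the 2 ranges did not overlap, though single cells varied far more (SD 8.21 bases over the members). The mean difference was -1.03 bases ± 0.460 (SD, n = 6; exact sign-flip permutation p = 0.0313, adjusted p = 0.0833). Being shorter in 6 of 6 libraries was shared by 21.1% of the 38 V genes, and IGHV1-26 was the eighth shortest. Within each J gene the members were also shorter, with differences of -0.450 bases for IGHJ1, -1.14 for IGHJ2, -0.301 for IGHJ3 and -1.16 for IGHJ4. Junctions of 33 bases stood out in the distribution, at 9.81% of members and 6.36% of others, whereas the commonest length, 39 bases, made up 15.7% and 15.5%.

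The shorter mean did not go with fewer N bases. Members carried 7.35 N bases ± 3.98 (SD over 954 cells with a D call) and others 7.16, and the library means were higher in 5 of 6 libraries (mean difference +0.185, exact permutation p = 0.219, adjusted p = 0.333). Junctions without N bases made up 1.68% of members and 1.58% of others. The D stretch averaged 11.2 bases in both sets. A D gene could not be called in 11.7% of members (127 cells) and 9.60% of others. The V gene reached its last germline base in 76.3% of member junctions. The 1081 cells held 1015 distinct junctions.

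The J genes of IGHV1-26 cells kept the order seen in other cells only in part. IGHJ2 was commonest at 35.9% of members (33.2% of others), then IGHJ3 at 24.3% (22.5%), IGHJ4 at 23.7% (25.2%) and IGHJ1 at 16.1% (19.0%). None of the 4 (0%) differed in 1 direction in 6 of 6 libraries. IGHJ1 was lower in 5 of 6, with a mean difference of -3.23 percentage points ± 2.55 (SD), and IGHJ2 was higher in 5 of 6 (+2.57 ± 3.78). IGHJ3 was split by node: it was lower than in other cells in both dCLN libraries (18.7% against 21.6% in WT and 20.9% against 23.6% in 5xFAD) and higher in the 4 sCLN and iLN libraries, where members ran from 25.1% to 28.9% and others from 21.5% to 22.8%. That split was noticed in the data and was not tested. IGHJ4, the J gene with the longest coding stretch, was lower in 4 of 6 libraries and ranged from 17.8% in 5xFAD iLN to 28.9% in WT dCLN (mean difference -1.88, exact permutation p = 0.25, adjusted p = 0.333).

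IGHD1-1 supplied the D segment of 39.5% of member junctions with a D call and 40.9% of others. IGHD4-1 followed at 11.5%, IGHD2-4 at 10.5% and IGHD2-3 at 9.22%. The largest positive differences were for IGHD2-5 (+0.816 percentage points) and IGHD2-3 (+0.813), and the largest negative ones for IGHD2-1 (-2.07, lower in 5 of 6 libraries) and IGHD1-1 (-1.10). None of the 9 D genes compared (0%) kept 1 direction in all 6 libraries.

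**Figure D3:**
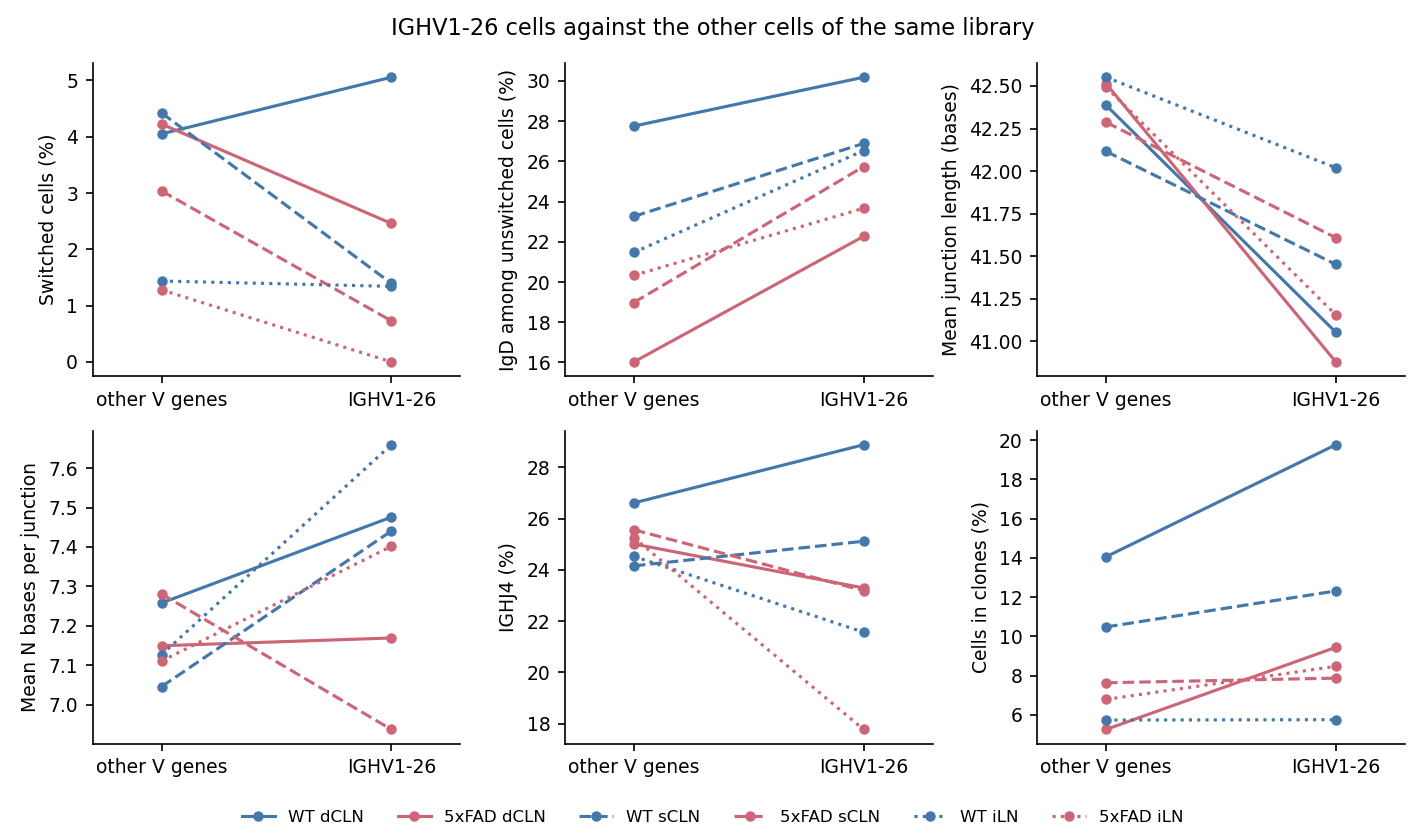
Values of 6 measures in the cells of other V genes (left of each panel) and in IGHV1-26 cells (right), with 1 line per library, blue for WT and red for 5xFAD, solid for dCLN, dashed for sCLN and dotted for iLN; vertical axes do not start at 0 and carry percent, bases or N bases. The lines for IgD share and for cells in clones rise and those for junction length fall in 6 of 6 libraries, and the other 3 panels are mixed.

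IGHV1-26 heavy chains were paired with a broad set of light chains. Among the 992 members with exactly 1 light chain, 80 of the 92 light chain V genes of the data set occurred. IGKV10-96 was commonest with 51 cells, followed by IGLV1 with 43, IGKV1-135 with 40, IGKV12-46 with 33 and, tied at 31 cells each, IGKV6-32 and IGKV6-17. IGKV10-96 was commonest overall too, at 5.14% of members and 5.50% of others. No light chain V gene of the 45 compared (0%) was higher with IGHV1-26 in 6 of 6 libraries, and 4.44%, which is 2 genes, were lower in all 6. IGKV14-111 made up 0.806% of members (8 cells) and 2.35% of others, and was at 0 in 5xFAD iLN and between 0.493% and 1.57% elsewhere, against 1.92% to 2.65% in other cells. IGKV15-103 made up 0.706% (7 cells) and 1.20%, with 1 or 2 member cells in each library. With the mixed library added, neither was lower in all 7.

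The lambda share was 4.43% of members (44 cells) and did not move in 1 direction against other cells (higher in 3 and lower in 3 libraries, mean difference -0.395, exact permutation p = 0.688, adjusted p = 0.688). Among light chain J genes, IGKJ1 was higher with IGHV1-26 in 6 of 6 libraries (31.6% against 27.8% pooled), 1 of the 5 compared (20%).

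**Figure D4:**
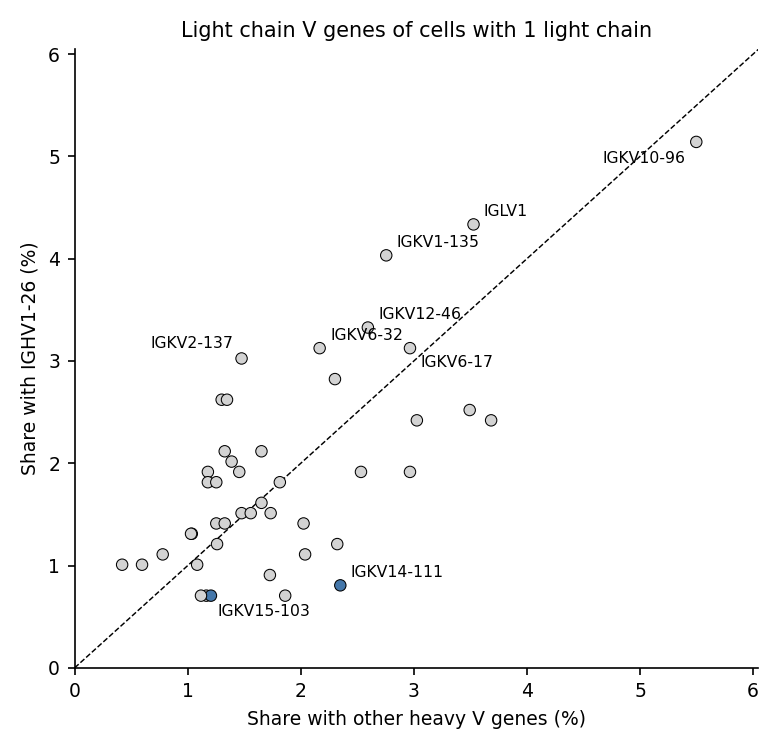
Share of each light chain V gene among cells with 1 light chain, with IGHV1-26 (vertical axis, percent) against other heavy V genes (horizontal axis, percent), 6 libraries pooled, for the 45 genes at 1% or more in either set. The dashed line marks equal shares, and the blue points, IGKV14-111 and IGKV15-103, were lower in 6 of 6 libraries.

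Point mutations were counted over the V region as mismatches to the germline, and the 21 switched members carried 3.00% ± 2.24 (SD over cells). The median was 3.74% and the most mutated cell, an IgG2c cell of WT dCLN, had 24 mismatches (8.16%). Of the 21, 14 had 9 or more mismatches and 4 had none. Other switched cells averaged 2.61% ± 2.49. By library the member means were 4.42% in WT dCLN (n = 9 cells), 2.73% in 5xFAD dCLN (6), 1.14% in WT sCLN (3), 0.340% in 5xFAD sCLN (1) and 1.53% in WT iLN (2), against 2.20% to 2.91% in other cells. Members were higher in both dCLN libraries and lower in the other 3 (mean difference -0.644 over 5 libraries, exact permutation p = 0.438, adjusted p = 0.5, where the smallest p for 5 libraries is 0.0625). The 21 cells fell into 16 clones by heavy chain similarity, and with each clone counted once the mean was 2.62% ± 2.45.

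Mutation was unevenly spread along the gene. In switched cells, 0.889% of FWR1 bases, 1.79% of CDR1, 4.95% of FWR2, 5.95% of CDR2 and 2.97% of FWR3 bases were mismatches. With each clone counted once the values were 0.667%, 2.34%, 3.55%, 5.47% and 2.85%, so among these 5 regions CDR2 was highest and FWR1 lowest both ways. The last 6 bases of the V region, which lie in CDR3 and abut the joint, gave 6.61% and 4.40% on far fewer bases. Of the CDR1 and CDR2 mismatches 82.1% (32 of 39) changed the amino acid, against 59.4% (82 of 138) in the frameworks, while 78.5% and 78.6% of all possible single-base changes would. With each clone counted once these shares were 76.7% and 65.2%. Transitions made up 59.3% of 135 substitutions. Here, and for the positions below, a substitution found in any cell of a clone counted once for that clone. The region and amino acid values with each clone counted once took 1 cell per clone instead.

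Positions are counted from 1 at the first base of the V region and the germline base is written first. The IGHV1-26 sequence holds 4 copies of AGCT, a motif that reads the same on both strands and that activation-induced deaminase, the enzyme that starts these mutations, is known to favour. Over the 16 clones, their 8 G or C positions were mutated in 14.8% of clone and position pairs, against 2.85% at the other 138 G or C positions. Most of that came from 1 copy, at positions 175 to 178 just after CDR2, where G176 was changed in 7 clones, C177 in 5 and at least 1 of them in 10 of 16. Each of the other 3 copies was changed in 2 clones. AGCT is not rare among V genes, since 97.4% of the 38 at 1% or more hold it. The most frequent single substitutions were G170A in 5 clones and C177T in 4.

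**Figure D5:**
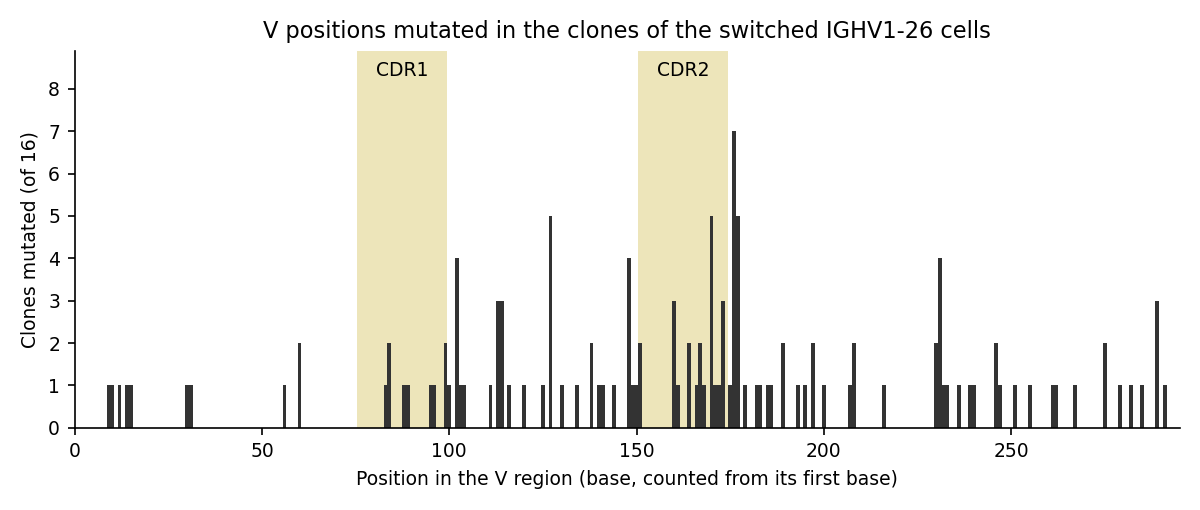
Number of clones, of the 16 that hold switched IGHV1-26 cells (vertical axis), with a mismatch at each base of the V region (horizontal axis, counted from its first base), with CDR1 and CDR2 shaded. The tallest bar, 7 clones, is at position 176 just past CDR2, and FWR1, to the left of CDR1, is nearly empty.

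Unswitched members were close to germline. A mismatch was found in 28 of 1032 (2.71%, interval 1.81 to 3.90), against 3.99% (3.69 to 4.31) of unswitched cells with other V genes. WT dCLN had the highest member share, with 12 of 169 cells mutated (7.10%, 3.72 to 12.1) against 3.99% of its other cells (3.32 to 4.75). These 2 intervals overlapped, as did that of the 5xFAD iLN members (0.845 to 7.69). Several of the 12 cells shared a clone, so they are not independent. The other 5 libraries ran from 0.943% in WT sCLN to 3.08% in 5xFAD iLN. In WT sCLN the member interval (0.114 to 3.37, 2 of 212 cells) lay below that of its other cells (4.34%, 3.64 to 5.12). Members were also lower in 5xFAD dCLN (1.68% against 4.24%), 5xFAD sCLN (2.21% against 4.16%) and WT iLN (2.04% against 3.93%), with overlapping intervals. In 5xFAD iLN they were slightly higher (3.08% against 2.91%). These differences were not tested. WT dCLN also held 6 of the 9 unswitched members with 3 or more mismatches, among them an IgM pair with the light chain IGKV1-117 carrying 10 and 12 mismatches, 1 of which had 264 heavy UMIs. Another of the 6, also among the 12 above, was the IGKV17-121 cell described below, with 8 of its 10 mismatches in FWR1.

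Cells in 1 library with similar junctions (at most 15% of bases different), the same V and J genes and the same light chain V and J genes were taken as a clone. In the 6 libraries 109 members lay in 48 clones, of which 44 had 2 cells, and in 44 all cells had 1 heavy and 1 light junction. The share of members with 1 light chain that lay in a clone was 19.8% in WT dCLN, 9.44% in 5xFAD dCLN, 12.3% in WT sCLN, 7.87% in 5xFAD sCLN, 5.76% in WT iLN and 8.47% in 5xFAD iLN. Other cells gave 14.1%, 5.26%, 10.5%, 7.64%, 5.74% and 6.79%, lower in each library but by only 0.0195 percentage points in WT iLN. The mean difference was +2.28 ± 2.25 (SD, n = 6; exact sign-flip permutation p = 0.0313, adjusted p = 0.0833), and 5.26% of the 38 V genes were higher in 6 of 6 libraries. That count of libraries was kept when clones were built at 0.10 or 0.20 of junction bases. The differences were then +2.36 and +2.37 (each adjusted p = 0.0833 by the same exact permutation test). It was not kept under 5 other settings. With at least 3 heavy UMIs the difference was +0.853 and with identical barcodes counted as 1 cell +0.410, each higher in 3 of 6 libraries. With the mixed library added it was +1.47, and set against the 4 next most used V genes +0.948 (higher in 4 of 6). Without the cells of the largest clone, described next, it was +1.05 and the direction turned in WT sCLN (-2.23) and WT iLN (-1.36), an alternative chosen after seeing the data. Adjusted p ran from 0.271 to 0.607 over these 5 settings, by the same exact permutation test.

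The largest clone was found in all 3 WT nodes. Its heavy and light junctions are shown because they were identical at every base in 15 cells, with the D bases of the heavy junction in capitals.

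heavy junction, IGHD1-1 and IGHJ4: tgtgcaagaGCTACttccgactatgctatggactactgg
light junction, IGKV2-137 and IGKJ2: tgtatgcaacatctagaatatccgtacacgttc

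There were 9 such cells in WT sCLN, 4 in WT dCLN and 2 in WT iLN, and 0 in the 5xFAD libraries and the mixed library. By isotype 14 were IgM and 1 was IgD, and 13 of the 15 had no V mismatch. No barcode of these cells occurred in another of the 6 libraries. Whether the cells came from 1 animal or several was not tested, since cells were not assigned to animals here. These 15 cells are among the 30 members with IGKV2-137, which was 3.02% of members and 1.48% of others. With each clone counted once the gene was 1.93% (18 of 931) and 1.44%, and was higher with IGHV1-26 in 6 of 6 libraries, against 5 of 6 over all cells. Clones were built within a library, so the largest clone still counted once in each WT library. The shares without it are not given here, so the 6 of 6 is not free of that clone. IGKV2-137 was singled out after its values were seen.

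A sixteenth cell, in WT dCLN, had the same heavy junction with another light chain, IGKV17-121, and 10 V mismatches. Of these 8 lay in FWR1, where IGHV1-53 was the nearest germline with 3 differences, and outside FWR1 the cell differed from IGHV1-26 at 2 bases and from IGHV1-53 at 27.

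A second junction was shared between libraries of 1 genotype. It was short and without a D call.

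heavy junction, IGHJ2: tgtgcaagaggggactactgg

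With the same IGKV1-135 light chain junction it occurred in 1 cell of 5xFAD dCLN and 1 of 5xFAD sCLN, both IgM. A WT dCLN cell had this heavy junction with a different IGKV1-135 junction.

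The largest switched clone lay in WT dCLN and had 2 branches, whose junctions are shown because they separate the branches (D bases in capitals; IGHD4-1, IGHJ2, IGKV9-120 and IGKJ5).

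branch 1 heavy junction: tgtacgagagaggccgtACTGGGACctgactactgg
branch 2 heavy junction: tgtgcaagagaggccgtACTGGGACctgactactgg
branch 1 light junction: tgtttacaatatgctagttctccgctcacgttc
branch 2 light junction: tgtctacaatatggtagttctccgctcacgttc

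Each branch had 3 cells. Branch 1 held 2 IgG2b cells and 1 IgG2c cell, and all 3 carried the same 13 V substitutions, among them C173T and C177T. Branch 2 held 2 IgG1 cells and 1 IgG2c cell with the same 12 substitutions, among them G170A and C177G. No substitution was shared by the branches, although both were changed at positions 177 and 279. The heavy junctions differed at 2 of 36 bases and the light junctions at 2 of 33. These 6 cells made up 6 of the 9 switched members of WT dCLN. One of the 6 had a further light chain and is not in the clone count above, which gives the clone 5 cells. Another clone of more than 2 cells, with 3 unmutated IgM or IgD cells paired with IGKV10-94, was in WT dCLN as well.

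Between genotypes, 5xFAD minus WT differences of the member cells are given as percentage points with 95% counting intervals. The switched share was lower in 5xFAD in all 3 nodes, with differences of -2.60, -0.665 and -1.34 percentage points in dCLN, sCLN and iLN, and each 95% interval held 0. Of the 9 switched WT dCLN members, 6 were cells of the 2-branch clone above, so the dCLN difference leans on 1 clone. In cells with other V genes the differences were +0.174, -1.38 and -0.157 in the same order of nodes. IGHJ4 was lower in all 3 nodes (mean difference -3.77), as were the lambda share (-3.13), the IgD share (-3.98) and the N bases (-0.356 bases). The IgD share is the measure that moved with UMIs above, and the median UMIs of WT dCLN members were 6 against 9 in 5xFAD dCLN. A sign-flip permutation test over 3 nodes is exact but cannot give a p below 0.25, which these 5 measures and IGHJ3, higher in 3 of 3 nodes, reached (adjusted p = 0.5). The share of members in clones was lower in 5xFAD dCLN than in WT dCLN (difference -10.3 percentage points, interval -17.9 to -3.08). Cells with other V genes of the same libraries were lower too (-8.80, -10.3 to -7.30). The lambda share in sCLN was 0.787% in 5xFAD and 5.42% in WT (difference -4.63, -8.77 to -0.204), and in other cells it was 4.73% and 5.09%. Apart from these 2, the intervals of the switched, IgD, IGHJ4, lambda and clone shares held 0 in each node. With 1 library in each group these intervals say nothing of the spread between animals.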

How the data were processed

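Single-cell B cell receptor contigs were analysed from 7 libraries, 1 per node and genotype and 1 mixed. The authors deposited 1 table of annotated contigs per library, holding per the file headers whole-number UMI counts and read counts, the V identity as a fraction, V, D, J and constant region calls, aligned sequences and N lengths. The submitters' processing notes name Cell Ranger 6.0.1, Seurat 4.1.0 and mm10, with no role. IgBLAST annotated the contigs, going by how the deposited tables are named; its version and germline set are not given here.

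The deposited heavy and light chain contigs were used with no filter on whether they were productive. To limit doublets, a barcode with more than 1 heavy chain was dropped; no caller for doublets was applied. Mutation was the percent of aligned V bases differing from the deposited germline. Clones were built by single linkage at 0.15 of junction bases. IGHV1-26 cells were compared with the other cells of the same library for 8 measures, with exact two-sided sign-flip permutation tests over 6 libraries and Benjamini-Hochberg adjustment. Usage chose the gene and was not tested. Named V genes were the 4 next most used and the 3 with the steadiest ratio to IGHV1-26. Named D and light chain genes were the most used with it and the largest differences, and named clones those of 4 or more cells or shared between libraries; the 3-cell IGKV10-94 clone, the IGKV1-117 pair and the IGKV10-96 pair of the mixed library were named after their values were seen. IGHV1-26 and these lists were chosen with earlier results of these data known. The UMI-weighted, J-weighted and leave-one-out values and those without the largest clone were chosen after seeing the data. The scripts were tested on simulated data. Python 3.11.15, numpy 2.4.6, pandas 2.3.3 and scipy 1.17.1 were used. Nothing was mapped to animals, and the gene expression and hashtag data were not used here.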

Additional observations from a re-analysis of the deposited data

Results flagged for a closer look

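The 5xFAD minus WT difference in the share of IGHV1-26 cells lying in clones was -10.3 percentage points in dCLN and +2.72 in iLN, opposite directions in 2 nodes with 1 library for each genotype. Cells with other V genes differed in the same directions, by -8.80 in dCLN and +1.05 in iLN. The difference between the nodes was not tested.

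Barcodes with 2 or more heavy chains stayed out of every comparison. There were 765 in the 6 libraries, and 88 of them held an IGHV1-26 chain. Such a barcode has more chances to hold the gene than a single-heavy cell. The count therefore cannot be set against the usage share above.

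The mixed library, which belongs to no node or genotype, held 9 switched cells among its 132 IGHV1-26 cells with a constant region call (6.82%, exact 95% interval 3.17 to 12.5), against 6.94% of its other cells. Of the 9, 4 had no V mismatch and 3 had over 100 heavy UMIs. The highest 2 had 322 and 2401 UMIs, were IgG2b and IgG2c, carried no V mismatch and shared the light chain V gene IGKV10-96 and this heavy junction (D bases in capitals).

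heavy junction, IGHD2-4 and IGHJ2: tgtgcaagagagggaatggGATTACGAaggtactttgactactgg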

How the results depend on the processing

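No adjusted p of the 8 measures fell below 0.05 in any setting, and with 6 libraries none could after adjustment unless several measures reached the smallest p together. The IgD difference turned to -3.36 percentage points when other cells were weighted to the UMIs of the members. The count of light chain V genes moving in 1 direction in every library was 2, and became 5 with at least 3 heavy UMIs, 4 with each clone counted once, 4 with identical barcodes counted as 1 cell and 0 with the mixed library added. IGKV14-111 and IGKV15-103 were in the count in each of these except the last. With each library left out in turn, chosen after seeing the data, the mean differences ran from -1.69 to -0.888 for the switched share, 4.14 to 5.00 for IgD, -1.22 to -0.207 for mutation, -1.13 to -0.909 bases for junction length, 0.116 to 0.291 for N bases, -2.71 to -0.763 for IGHJ4, -0.998 to 0.315 for lambda and 1.59 to 2.73 for clones. The lambda difference was positive only without 5xFAD sCLN (0.315). The IGHJ4 difference was -0.763 without 5xFAD iLN, and the mutation difference -1.22 without WT dCLN and -0.207 without 5xFAD sCLN. The causes were not tested. No V call was joint, so leaving joint calls out changed nothing by construction, as did requiring 1 light chain for the clone share, and counting each clone once leaves no clone share. No paired analysis was possible because by replicate number each group holds 1 library; the tests above are within libraries or within nodes. Each library held 0 to 9 switched members, which limits their values.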
